A study of Mus musculus with 69 samples.

Results

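Mouse CD4 T cells labelled as knockout for Irf1, the gene of IRF1 (interferon regulatory factor 1), were cultured with IL-27. The polyadenylated RNA of these cells was set against that of control cells handled in the same batch. The comparison holds 5 of the 69 libraries of the series, chosen by their titles: 3 Irf1 knockout libraries and 2 control libraries. By the labels, knockout cells were C57BL/6 with the genotype Irf1 KO, and control cells were C57BL/6 and WT; the sources used here give no allele, age or number of mice for either. Both groups started as naive CD4 T cells and were kept for 72 h with 25 ng/ml of IL-27 and 1 ug/ml of anti-CD3, conditions known to yield type 1 regulatory (Tr1) cells; an anti-CD8 antibody, also 1 ug/ml, stands in the labels too. Each library came from 2000 lysed cells. Knockout library 1 shares batch A with its control, which is also the control of a Batf and an Irf8 knockout library. Knockout libraries 2 and 3 form batch C with the control numbered 2, as the titles leave no other pairing. The series asks, by its title, what controls IL-10, and the question here is which genes, Il10 among them, depended on Irf1 in Tr1 cultures.

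IRF1 is a DNA-binding transcription factor that interferon gamma induces. It binds interferon-stimulated response elements, which are built from repeated GAAA steps, and it is known for raising the genes of interferon-inducible GTPases, of antigen processing and of the Th1 response. Tr1 cells are CD4 T cells that secrete IL-10 and often interferon gamma, and IL-27 signals to them through STAT proteins, STAT3 among them.

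The 5 libraries held between 743445 counts in Irf1 knockout 1 and 4564210 counts in Irf1 knockout 2, with 11050 to 13437 genes detected. Irf1 knockout 3 held 3464228 counts, against 2307442 in the batch A control and 4418535 in the batch C control. In the shallowest library 3 counts equal 4.22 CPM (counts scaled to library size, with TMM factors over the 12 libraries of the fit), so a low level there is poorly known. Irf1 knockout 3 stood apart within its batch: over 6244 genes, its log2 ratios to knockout 2 had an SD of 0.641, against 0.408 for knockout 2 over their control. The T cell markers checked the label: the 12 of them summed to 3840 to 4370 CPM in Irf1 knockout libraries and to 3820 to 4620 CPM in controls. Of 15 myeloid markers 9 were at 0 in all 5 libraries, among them Lyz2, Cd14 and Csf1r, and the list summed to 73.3 to 98.5 CPM in Irf1 knockout and 64.1 to 103 CPM in control libraries. The 7 CD8 T and NK markers summed to 11.2 to 21.5 CPM in Irf1 knockout and 15.2 to 22 CPM in control libraries, with Ncr1, Klrb1c, Klra8 and Zbtb16 at 0. The 9 B cell markers summed to 5.63 to 41.9 CPM in Irf1 knockout libraries, the highest being knockout 3, against 16.5 to 19.3 CPM in controls. The part of these differences in the results was not tested. Since RNA was measured in bulk, fewer cells of a kind and less RNA per cell cannot be told apart.

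Irf1 itself, on chromosome 11, was measured first. It had 45.0, 45.5 and 53.0 CPM in Irf1 knockout libraries 1, 2 and 3, against 63.0 CPM in the batch A and 87.2 CPM in the batch C control. Every knockout library lay below its control, but the log2 change of -0.67 ± 0.23 (SE) did not pass the threshold used throughout, an adjusted p of 0.05 (adjusted p = 0.436; edgeR's quasi-likelihood test, Benjamini-Hochberg over 11059 genes). Counts per gene do not say where in the gene the reads lie, so a transcript that is made but altered would be counted too, and this level neither supports nor contradicts the label. None of the 9 IRF genes passed the test, and their median log2 change was -0.05, against 0.01 over all genes tested. Irf4, which T cell receptor signals induce, had 260, 320 and 171 CPM in Irf1 knockout against 431 and 447 CPM in control libraries (-0.83 ± 0.23, adjusted p = 0.218). Irf8 had 350, 295 and 333 CPM in Irf1 knockout against 332 and 307 CPM in control libraries, and the groups overlapped. The changes of Irf2 (0.12), Irf3 (-0.03), Irf5 (-0.02), Irf7 (-0.05) and Irf9 (-0.28) were close to 0 on the log2 scale or small against their errors.

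Per transcript length, in the TPM that the authors deposited, Irf8 and Irf4 led the family in the control libraries. Irf8 had 154 and 213 TPM and Irf4 120 and 186 TPM in the controls, so their ranges overlapped. Irf1 was next in the order, with 25.1, 36.6 and 30.4 TPM in Irf1 knockout against 38.9 and 80.4 TPM in control libraries. Irf2, Irf9 and Irf3 followed with control means of 36.2, 31.7 and 28.2 TPM, and Irf5 and Irf7 lay lower with 11.4 and 5.11 TPM. Neighbours in this order could not be separated by 2 control libraries, except Irf4 from Irf1, Irf3 from Irf5 and Irf5 from Irf7, whose control ranges did not overlap.

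A short list of genes was lower in the Irf1 knockout libraries, and Il10 was among them. The list held interferon-inducible GTPases and other interferon-stimulated genes, cytokine genes such as Ifng and Spp1, and a few cytotoxic genes. In all, 48 of the 11059 genes tested were lower (0.434%) and 5 were higher (0.0452%). The median change over all genes was 0.01 on the log2 scale, and 5393 genes had a negative value; TMM scaling centres the changes, so a shift of all genes together would not show here. Of the 53 called genes 52 changed more than 2-fold and 29 more than 4-fold. All 48 lower genes were below the batch control in every knockout library, as were 22% of all genes tested. The 48 were called on these same libraries, so this largely follows from the call and is no separate support. The exception in the other direction was Tgtp1, treated with its twin below. No label states that libraries of a group are from different mice or cultures; the spread behind each p-value may therefore be technical. The count leaned on single libraries: without the batch C control 2 genes passed (Gbp2 and Spp1), without Irf1 knockout 1 there were 18, all lower, and the 5 higher genes became 15 without knockout 2, 10 without knockout 3 and 2 without the batch A control.

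**Figure D1:**
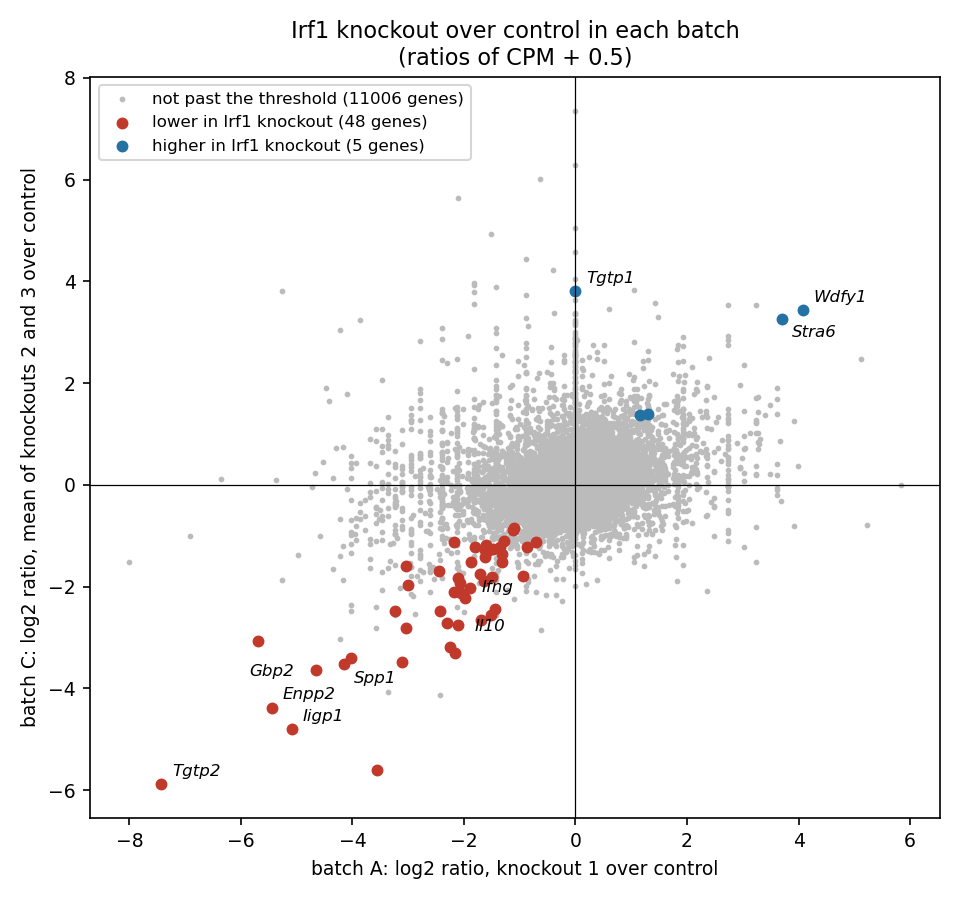
Log2 ratio of Irf1 knockout over control in batch A (x axis, 1 knockout library) and in batch C (y axis, mean of 2), from CPM plus 0.5, with 1 point per tested gene. The 48 genes called lower lie at the lower left and 4 of the 5 called higher at the upper right; Tgtp1 lies on the vertical line because it had no count in either batch A library.

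Many interferon-inducible GTPases of the GBP and IRG families, which attack the vacuoles of intracellular pathogens, fell. Of 17 tested members 10 passed the test as lower, 1 (Tgtp1) passed as higher and 6 did not pass, and their median log2 change was -1.89, against 0.01 over all genes. In 16 of the 17 every knockout library was below its control, against 22% of all genes. Within batches the median member ratio was -2.42 in A and -1.88 in C. Without Irf1 knockout 1, 6 members passed as lower, and without the batch C control 1. Gbp2, a guanylate-binding protein and a textbook IRF1 target, had 12.7, 31.7 and 22.7 CPM in Irf1 knockout libraries, against 330 and 342 CPM in controls. The groups were far apart, a 14.9-fold difference (-3.90 ± 0.26, adjusted p = 2.73e-06), and Gbp2 was the gene with the smallest p of the whole table.

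The immunity-related GTPase Ifi47 (IRG-47) had 18.3, 18.4 and 13.5 CPM in Irf1 knockout against 101 and 91.2 CPM in control libraries (-2.50 ± 0.27, adjusted p = 0.000322). Igtp (Irgm3), a regulatory IRG protein, was the most abundant of the called GTPases by CPM and fell less, to 148, 167 and 171 CPM in Irf1 knockout against 413 and 406 CPM in control libraries (-1.34 ± 0.20, adjusted p = 0.00375). The regulatory members Irgm1 (-1.32 ± 0.27) and Irgm2 (-1.49 ± 0.31) changed by similar amounts. All knockout libraries of these genes lay below both controls.

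Iigp1 (Irga6), an effector IRG protein, gave 0, 1 and 1 counts in the Irf1 knockout libraries and 39 and 108 counts in the controls. Summed over libraries it was 86.1-fold lower in the knockout, with an exact 95% interval of 23.4 to 718 that covers counting error only (adjusted p = 3.65e-05). Gm12250, listed as Irgb10 among the RefSeq synonyms and named here after its values were seen, had 4.22, 0.82 and 0.60 CPM in Irf1 knockout against 55.4 and 58.2 CPM in control libraries (-5.59 ± 0.49, adjusted p = 3.65e-05). Iigp1 and Gm12250 each had at most 4 counts in any knockout library, and the 0 of Iigp1 in knockout 1 allows up to 4.22 CPM there.

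Tgtp1 and Tgtp2 (Irgb6) are near-identical copies that share reads, and the expected counts split them in opposite ways. Tgtp2 had 0, 0 and 8 counts in Irf1 knockout against 202 and 526 counts in control libraries, and Tgtp1 had 0, 40 and 16 counts in Irf1 knockout and 0 in both controls. Either value alone is therefore uncertain. Summed after this was seen, the pair had 0, 40 and 24 counts in Irf1 knockout against 202 and 526 counts in control libraries, a log2 change of -4.03 ± 0.39 (adjusted p = 7.86e-05), and with the sum the table holds 51 called genes.

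Among other guanylate-binding proteins Gbp6 had 12.7, 14.7 and 5.09 CPM in Irf1 knockout against 62.5 and 94.0 CPM in control libraries (-2.97 ± 0.36). Gbp5, which works with the inflammasome, had 23.9, 27.0 and 18.9 CPM in Irf1 knockout against 75.6 and 85.8 CPM in control libraries (-1.80 ± 0.26). Gbp10 had 0, 1.23 and 3.59 CPM in Irf1 knockout against 7.61 and 30.1 CPM in control libraries (-3.88 ± 0.66). The GBP genes of mouse are close paralogs whose reads may be shared, so single members carry that uncertainty. The 6 members that did not pass were Gbp3 (-1.69), Gbp4 (-1.89), Gbp7 (-2.0), Gbp8 (-0.74), Gbp9 (-1.74) and Gvin1 (-4.05), with adjusted p-values of 0.0868 and above. Gvin1 had 1.41, 23.3 and 4.49 CPM in Irf1 knockout against 9.72 and 250 CPM in control libraries, so its controls differed widely and knockout 2 lay above the batch A control.

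**Figure D2:**
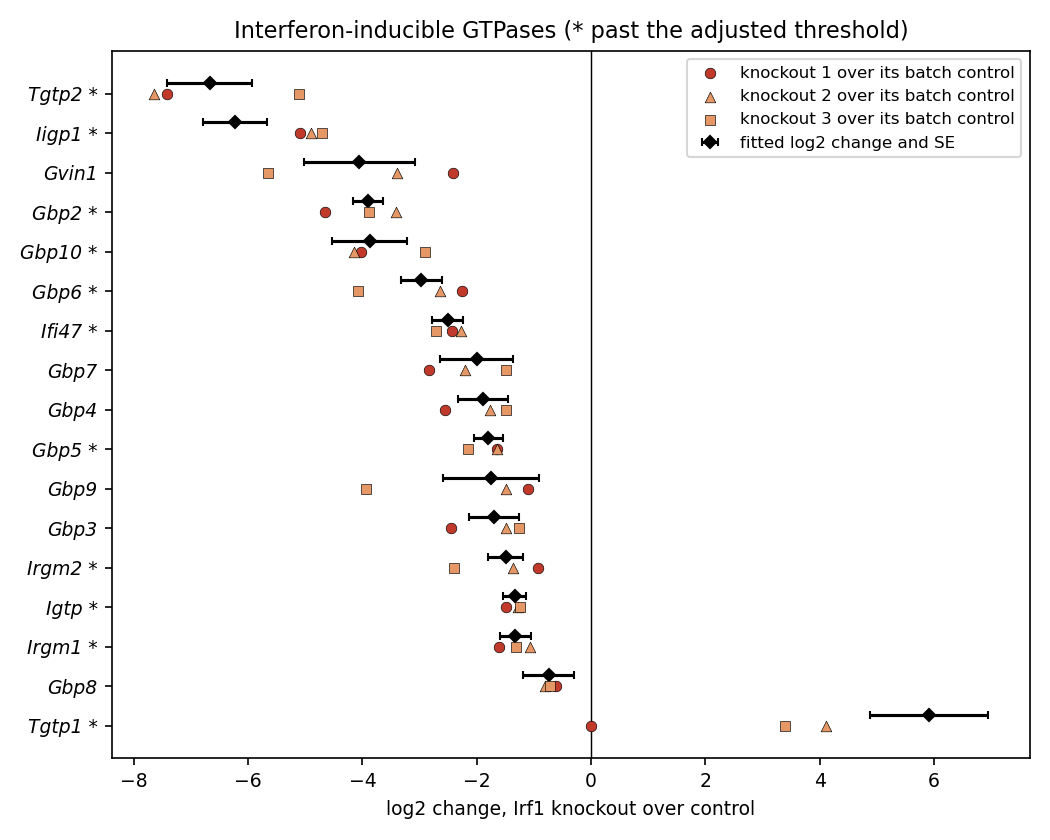
Log2 change of the 17 tested GBP and IRG genes, Irf1 knockout over control: coloured points are each knockout library over the control of its batch (CPM plus 0.5), black diamonds the fitted change with its SE. All members but Tgtp1 lie left of 0 in every library.

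The promoters of these genes are shown because IRF1 is known to bind GAAA repeats. RefSeq windows of 300 bases on GRCm38.p6, from 250 bases before to 50 after the start, were searched on both strands for GAAANNGAAA, the core of an interferon-stimulated response element; on the opposite strand it reads TTTCNNTTTC. Capitals mark each match in the stretches below, which run 5′ to 3′ on the strand of the gene.
Gbp2, chr3:142620579-142620638, plus strand: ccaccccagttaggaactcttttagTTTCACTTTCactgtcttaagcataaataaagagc
Gbp5, chr3:142496744-142496803, plus strand: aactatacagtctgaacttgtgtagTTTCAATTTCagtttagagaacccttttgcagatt
Gm12250, chr11:58183727-58183831, plus strand: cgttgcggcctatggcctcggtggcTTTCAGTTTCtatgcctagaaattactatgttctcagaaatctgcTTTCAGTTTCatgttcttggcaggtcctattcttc
Igtp, chr11:58199497-58199556, plus strand: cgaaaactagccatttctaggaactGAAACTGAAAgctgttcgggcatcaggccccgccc
Irgm2, chr11:58214888-58214947, plus strand: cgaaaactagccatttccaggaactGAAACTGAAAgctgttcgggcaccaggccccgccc
Irgm1, chr11:48871410-48871475, minus strand: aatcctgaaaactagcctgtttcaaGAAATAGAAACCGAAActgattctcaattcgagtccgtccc
Tgtp2, chr11:49064248-49064307, minus strand: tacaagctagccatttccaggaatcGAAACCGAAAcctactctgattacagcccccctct

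Of the 11 lower GTPases, Gm12250 included, 8 had a window and 7 of these held the core, against 3.44% of all 32851 windows; Ifi47 was the one without a match. Of all 17 tested list members, which do not include Gm12250, 10 had a window and 9 of these held it, members not called lower among them. The first match began 59 bases before the start in Gbp2 (offset -59) and lay at offsets from -165 in Gbp5 to -30 in Irgm1. The stretches of Igtp and Irgm2 differ in 2 of 60 letters, and several of these genes are paralogs in 1 cluster, so the matches are not independent of each other. A second core, TTCNNNGAA, which STAT proteins can bind, was in 5 of the 8 windows, against 8.3% of all windows. Among lower genes outside the GTPases 4 of 25 with a window held GAAANNGAAA.
Oas3, chr5:120777700-120777759, minus strand: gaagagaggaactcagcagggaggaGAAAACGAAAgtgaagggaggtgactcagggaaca
Serpinb9, chr13:33004470-33004529, plus strand: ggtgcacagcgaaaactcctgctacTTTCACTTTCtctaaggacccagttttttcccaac
Spp1, chr5:104434929-104434988, plus strand: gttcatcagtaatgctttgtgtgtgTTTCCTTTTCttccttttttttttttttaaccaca
These are 3 of the 4, shown for comparison with the GTPases, and the match in Spp1 is followed by a run of T. A match describes the letters only, and the absence of a match says nothing about binding elsewhere.

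Over all 11059 genes tested, 0.434% were lower, the median log2 change was 0.01 and 5393 genes had a negative value. Among other interferon-stimulated genes the median log2 change was -0.79, and 37 of the 40 tested had a negative value. Of the 40, 6 were lower and 0 higher. That count was 0 without Irf1 knockout 1, 0 without the batch C control and 3 without the batch A control. Zbp1, a sensor of Z-form nucleic acid, had 0, 1.84 and 5.09 CPM in Irf1 knockout against 25.4 and 32.6 CPM in control libraries (-3.60 ± 0.58, adjusted p = 0.00753). Usp18, which removes ISG15 from proteins and dampens interferon receptor signalling, had 1.41, 1.23 and 1.5 CPM in Irf1 knockout against 15.2 and 12.5 CPM in control libraries (-3.14 ± 0.56, adjusted p = 0.0158). In both genes no knockout library came near a control.

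Oas3, a producer of the second messenger that activates RNase L, had 5.63, 7.15 and 13.2 CPM in Irf1 knockout against 57.0 and 58.8 CPM in control libraries (-2.80 ± 0.45). Parp14, an ADP-ribosyltransferase, had 8.45, 12.7 and 6.58 CPM in Irf1 knockout against 28.3 and 63.3 CPM in control libraries (-2.36 ± 0.43). The Ly6 surface proteins Ly6a (Sca-1) and Ly6c1 were abundant and changed less, by -1.01 ± 0.19 and -1.30 ± 0.18. Other members of the list did not pass, for example Isg15 and Ifit1. Isg15 had 8.45, 5.51 and 6.28 CPM in Irf1 knockout against 15.6 and 7.96 CPM in control libraries, and Ifit1 0, 4.08 and 8.98 CPM in Irf1 knockout against 4.65 and 3.6 CPM in control libraries. The groups overlapped in Ifit1 but not within batches in Isg15.

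In the machinery of MHC class I presentation 1 of 23 tested genes was lower, with a list median of -0.26, against 0.434% and 0.01 over all genes. That gene was Psmb10, an immunoproteasome subunit, at 19.7, 14.5 and 19.1 CPM in Irf1 knockout against 73.5 and 49.1 CPM in control libraries (-1.62 ± 0.26, adjusted p = 0.00792). The other immunoproteasome subunits had smaller values that did not pass, -0.73 ± 0.23 for Psmb9 and -0.53 ± 0.23 for Psmb8. The peptide transporter gene Tap1, which shares a promoter with Psmb9 and is a known IRF1 target elsewhere, had 483, 336 and 409 CPM in Irf1 knockout against 484 and 378 CPM in control libraries (-0.03 ± 0.19), and B2m, the light chain, had a log2 change of -0.08 ± 0.25. Of 17 tested genes known as IRF1-dependent from other cells, 2 were lower, Gbp2 and Psmb10, against 0.434% of all genes. Casp1, also on that list, had 0 counts in all Irf1 knockout libraries and 11 and 42 counts in the controls without passing the test (adjusted p = 0.132), and Il12rb1, a subunit of the IL-12 receptor, had a log2 change of -0.88 ± 0.22 (adjusted p = 0.132). Casp4, a sensor of cytosolic lipopolysaccharide, passed as lower (-2.49 ± 0.50, adjusted p = 0.0400). It had 7.04, 2.25 and 2.99 CPM in Irf1 knockout against 21.1 and 17.8 CPM in control libraries. The Casp4 call held in 7 of 13 other settings and was lost, among others, without Irf1 knockout 1, 2 or 3.

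Il10, the gene the series is about, had 5.63, 3.68 and 1.80 CPM in Irf1 knockout libraries, against 25.8 and 21.4 CPM in controls. All knockout libraries lay well below both controls, a 6.4-fold difference (-2.68 ± 0.40, adjusted p = 0.00421). Within batches the log2 ratio was -2.10 in A and -2.76 in C. In counts these are 4, 18 and 6 in Irf1 knockout against 61 and 113 in control libraries. The call was lost without the batch C control (-2.14, adjusted p = 1.00), which leaves 1 knockout against 1 control library, in a fit of the 5 libraries alone (-2.70, adjusted p = 0.0935), and in batch C alone (-2.93, adjusted p = 0.303).

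**Figure D3:**
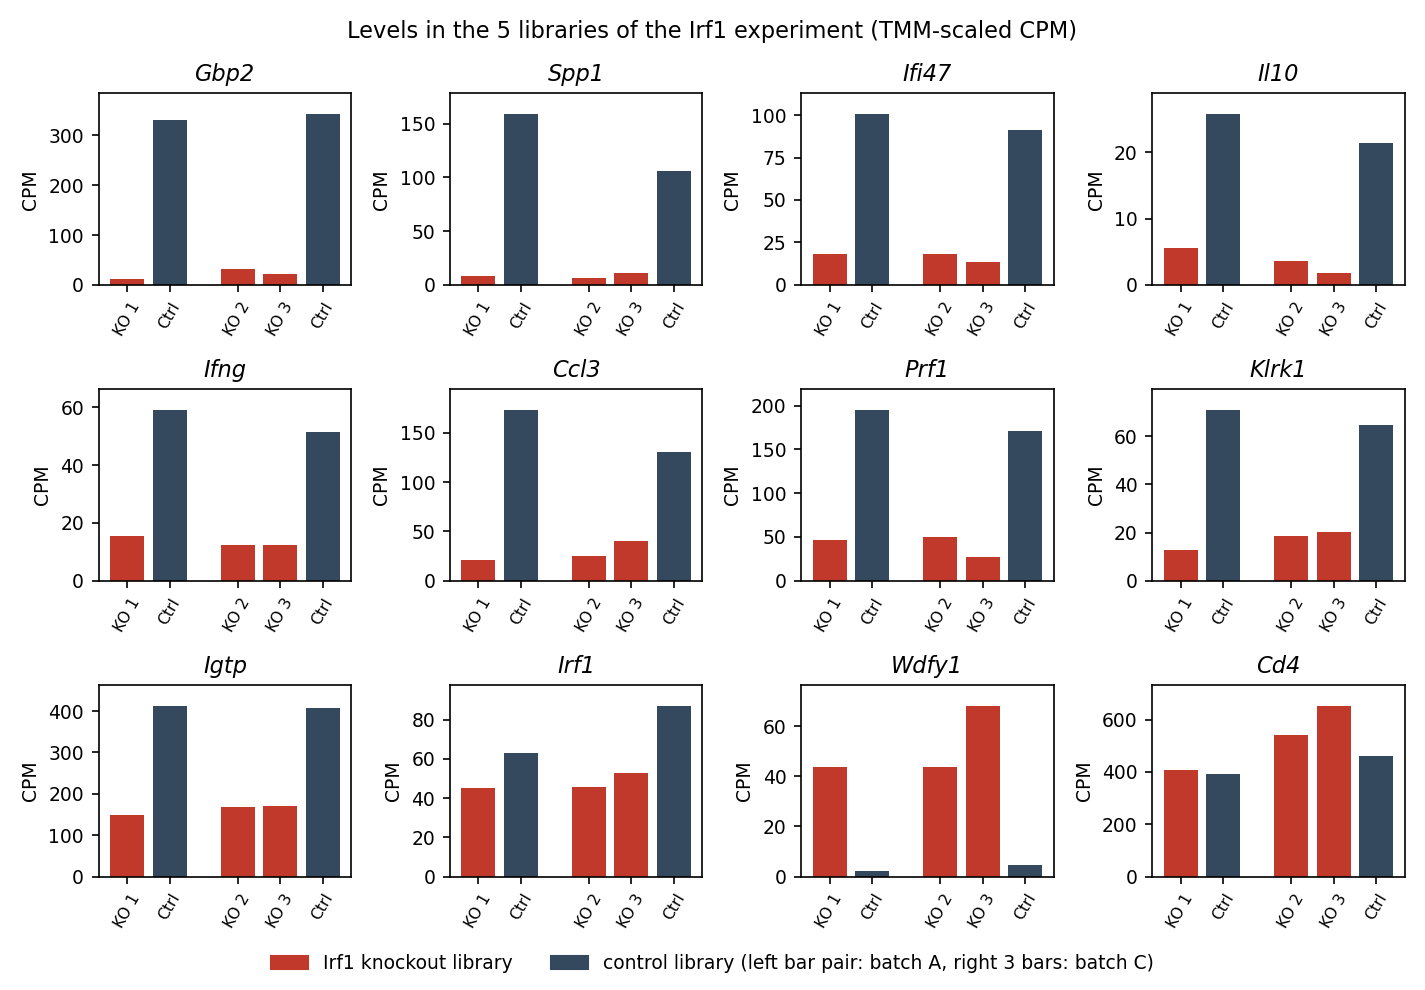
TMM-scaled CPM (y axis, linear, from 0) of 12 genes in the 5 libraries; red bars are Irf1 knockout and dark bars control libraries, batch A left and batch C right. Il10 sits at 1.80 to 5.63 CPM in the knockout bars and at 21.4 and 25.8 CPM in the controls, and Cd4 is shown as a T cell marker that did not pass the test.

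Ifng, Ccl3 and Spp1 fell together with Il10. Of all genes tested 0.434% were lower, with a median log2 change of 0.01. Of 31 cytokine and chemokine genes tested 4 were lower and 0 higher, with a list median of -0.29; without the batch C control 1 was called. Ifng, the gene of interferon gamma, had 15.5, 12.3 and 12.3 CPM in Irf1 knockout against 59.2 and 51.4 CPM in control libraries (-2.10 ± 0.26, adjusted p = 0.000912). The chemokine gene Ccl3 had 21.1, 25.1 and 40.4 CPM in Irf1 knockout against 173 and 131 CPM in control libraries (-2.38 ± 0.30, adjusted p = 0.000984). Its neighbour Ccl4 had 56.3, 54.5 and 101 CPM in Irf1 knockout against 214 and 153 CPM in control libraries and missed the threshold (-1.49 ± 0.32, adjusted p = 0.0582). Spp1, which encodes the secreted adhesion protein osteopontin, had 8.45, 6.33 and 11.1 CPM in Irf1 knockout against 159 and 106 CPM in control libraries (-3.78 ± 0.30, adjusted p = 1.13e-05). Spp1 and Gbp2 also passed under each of the 13 other settings tried.

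Some cytokine genes had close values in both groups. Lta (lymphotoxin alpha) had 241, 269 and 275 CPM in Irf1 knockout against 279 and 297 CPM in control libraries. Il21, another cytokine of IL-27 cultures, had 22.5, 17.2 and 11.1 CPM in Irf1 knockout against 24.5 and 17.8 CPM in control libraries (-0.18 ± 0.38). Il4, Il5, Il13 and Il17a had 0 counts in all 5 libraries, which allows levels of up to 4.22, 0.613 and 0.898 CPM in Irf1 knockout libraries 1, 2 and 3, against 1.27 and 0.569 CPM in the controls.

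The 16 tested genes of the Th1 programme had a median of -0.66, against 0.01 over all genes. Of the 16, 3 were lower, Ifng among them, against 0.434% of all genes. The count was 1 without Irf1 knockout 1, 1 without the batch A control and 0 without the batch C control. Tbx21, the gene of the Th1 master regulator T-bet, had 39.4, 56.4 and 49.4 CPM in Irf1 knockout against 75.2 and 80.3 CPM in control libraries and did not pass (-0.65 ± 0.26, adjusted p = 0.550). Il12rb2 (-0.72 ± 0.27) did not pass either. None of 8 tested Th2 genes passed; Gata3, the Th2 regulator, had 11.3, 10.2 and 15.9 CPM in Irf1 knockout against 2.54 and 2.84 CPM in control libraries (2.05 ± 0.70, adjusted p = 0.424), so its groups did not overlap; in 21.2% of all genes every knockout library was above its control.

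The IL-27 receptor, JAK-STAT and SOCS list had 17 tested members with a median of -0.14. The receptor chain gene Il27ra had 53.5, 50.9 and 57.2 CPM in Irf1 knockout against 57.0 and 59.7 CPM in control libraries (-0.09 ± 0.23). Il6st, its partner gp130, had a log2 change of -0.55 ± 0.46. Stat3, an IL-27 effector, had 203, 311 and 235 CPM in Irf1 knockout against 216 and 349 CPM in control libraries (-0.30 ± 0.22), and its feedback target Socs3 had 120, 115 and 115 CPM in Irf1 knockout against 153 and 187 CPM in control libraries (-0.56 ± 0.22, adjusted p = 0.536). The kinases Jak1 (0.07), Jak2 (-0.39) and Tyk2 (-0.14), Stat2 (-0.46), Stat4 (-0.04), Stat5a (-0.20) and Stat5b (-0.01) did not pass. Of the other feedback genes, Socs1 (-0.48), Socs2 (0.67), Cish (0.28), Ptpn2 (0.11) and Pias1 (0.19) did not pass either.

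Of 22 tested Tr1 markers 2 were lower, Il10 among them, with a list median of -0.29, against 0.434% and 0.01 over all genes. The regulators of Il10 that act in Tr1 cells did not pass the test. Prdm1 (Blimp-1) had 12.7, 14.7 and 11.7 CPM in Irf1 knockout against 27.9 and 29.9 CPM in control libraries (-0.97 ± 0.50, adjusted p = 0.684). Maf had 23.9, 28 and 64.9 CPM in Irf1 knockout against 33.4 and 52.3 CPM in control libraries, with knockout 3 above its control (-0.32 ± 0.43). Batf (0.37), Nfil3 (0.01) and Ahr (-0.35) did not pass. The co-inhibitory receptor Lag3 had 652, 407 and 570 CPM in Irf1 knockout against 574 and 431 CPM in control libraries (0.16 ± 0.21), and Entpd1 (CD39) had 2.82, 12.5 and 7.18 CPM in Irf1 knockout against 31.7 and 22.4 CPM in control libraries without passing (-1.93 ± 0.59, adjusted p = 0.327). None of the 19 tested co-inhibitory and co-stimulatory receptors passed, and their median was -0.02.

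Genes of the cytotoxic programme fell in part, beside 0.434% lower and a median log2 change of 0.01 over all genes tested. Of 14 tested 3 were lower, with a median of -0.62; without Irf1 knockout 1 there was 1, and without the batch C control 0. Prf1 (perforin) had 46.5, 50.5 and 26.6 CPM in Irf1 knockout against 195 and 171 CPM in control libraries (-2.06 ± 0.31, adjusted p = 0.00432). Klrk1, the gene of the activating receptor NKG2D, had 12.7, 18.8 and 20.4 CPM in Irf1 knockout against 71.0 and 64.6 CPM in control libraries (-1.93 ± 0.30). Serpinb9, an inhibitor of granzyme B, had 18.3, 28 and 16.8 CPM in Irf1 knockout against 78.2 and 87.0 CPM in control libraries (-2.04 ± 0.26). Granzyme B itself, Gzmb, was abundant and did not pass, at 1660, 1670 and 1600 CPM in Irf1 knockout against 2270 and 2050 CPM in control libraries (-0.36 ± 0.19, adjusted p = 0.698), and the granule gene Nkg7 had a log2 change of -0.03 ± 0.22. The CD8 T and NK markers given above were low in all 5 libraries, and of those tested none passed.

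Several lower genes lie outside these programmes. Tgm2 (transglutaminase 2) had 98.5, 186 and 179 CPM in Irf1 knockout against 425 and 653 CPM in control libraries (-1.91 ± 0.20). Il13ra1, a chain of the IL-13 receptor, had 8.45, 6.13 and 3.29 CPM in Irf1 knockout against 76.9 and 57.8 CPM in control libraries (-3.34 ± 0.47). Serpinb5 (maspin) had 22.5, 17.6 and 17.4 CPM in Irf1 knockout against 103 and 77.3 CPM in control libraries (-2.14 ± 0.27). These 3 genes were below both controls in every knockout library.

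Dusp6, a phosphatase that turns off ERK, had 8.45, 7.97 and 5.09 CPM in Irf1 knockout against 34.6 and 32.2 CPM in control libraries (-2.36 ± 0.39). Ptpn14, a tyrosine phosphatase, changed by -2.81 ± 0.53, and Ifi27l1, an interferon-inducible gene, by -3.23 ± 0.45. Enpp2 (autotaxin, which makes lysophosphatidic acid; named after its values were seen) gave 0, 2 and 1 counts in Irf1 knockout and 50 and 91 counts in control libraries, a 55.1-fold difference with an exact 95% interval of 18.5 to 270.2 for counting error. Of 26 activation and network transcription factors 1 passed, Myc, at 135, 106 and 97.3 CPM in Irf1 knockout against 221 and 221 CPM in control libraries (-1.04 ± 0.22, adjusted p = 0.0493). The Myc call held in 4 of 13 other settings and was lost, among others, with other size factors and without Irf1 knockout 1, Irf1 knockout 2, the first Irf8 knockout library or either control. Of 33 cell cycle and replication genes 1 passed, Rrm2, the small subunit of ribonucleotide reductase (-1.30 ± 0.25; called in 8 of the 13 settings, and not without Irf1 knockout 1 or the batch C control), although 30 of the 33 had a negative value and the list median was -0.33. Over all genes tested 0.479% passed, 5393 of 11059 had a negative value and the median was 0.01. Mki67 had 39.4, 231 and 89.8 CPM in Irf1 knockout against 51.5 and 299 CPM in control libraries, so the batches differed more than the genotypes.

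The 5 genes called higher were Wdfy1, Stra6, Klk8, Snhg1 and Tgtp1. Wdfy1, an endosomal adaptor of Toll-like receptor signalling, had 43.6, 43.7 and 68.2 CPM in Irf1 knockout libraries, against 2.11 and 4.74 CPM in controls (3.38 ± 0.53, adjusted p = 0.00564). Stra6, a retinol transporter, had 22.5, 17.2 and 20.6 CPM in Irf1 knockout against 1.27 and 1.52 CPM in control libraries (3.58 ± 0.62, adjusted p = 0.0122). Both rises separated the groups fully. High levels were also found outside the Irf1 knockout. Wdfy1 had 46.7 and 43.8 CPM in the Irf8 knockout libraries and 39.6 CPM in the Stat3 knockout library. The batch B controls had 4.87 and 15.1 CPM, and the Irf8 change missed the threshold (2.94, adjusted p = 0.0636 by edgeR's quasi-likelihood test). Wild-type BALB/c controls of the Irf9 experiment, described below, had 34.2, 38.9 and 34.8 CPM of Wdfy1. The Irf9 knockout libraries had 33, 39.1, 35.9 and 36.5 CPM. A high Wdfy1 level was thus not confined to knockout libraries. Stra6 rose in the Batf knockout (3.27, adjusted p = 0.0019 by the same test). Klk8, a kallikrein-type protease, had 103, 69.8 and 94.6 CPM in Irf1 knockout against 46.0 and 31.3 CPM in control libraries (1.31 ± 0.24), and the small nucleolar RNA host gene Snhg1 had 162, 98.5 and 131 CPM in Irf1 knockout against 65.5 and 43.2 CPM in control libraries (1.30 ± 0.25). None of the called rises but Tgtp1 belongs to a list used here.

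Metabolic and stress programmes did not pass. None of 32 tested glycolysis and hypoxia genes was called, and their median was 0.22; Aldoa, a glycolytic enzyme, had 7930, 4610 and 5200 CPM in Irf1 knockout against 5520 and 3150 CPM in control libraries (0.63 ± 0.20, adjusted p = 0.351). None of 20 genes of the integrated stress and unfolded protein response was called, with a median of 0.25; Ddit3 (CHOP) had 42.2, 52.9 and 110 CPM in Irf1 knockout against 21.1 and 24.1 CPM in control libraries (1.34 ± 0.39, adjusted p = 0.272). Cytokine receptor chains (0 of 26), Treg (0 of 10), Th17 (0 of 8) and Tfh genes (0 of 9) and cholesterol and fatty acid synthesis (0 of 20) held no call. Of 18 tested genes near Irf1 on chromosome 11, 0 passed, and their median was -0.01. That list leaves out GTPase genes called lower on the same chromosome. On GRCm38.p6 Irf1 starts at base 53770014. Irgm1 starts at 48865245, Tgtp2 at 49057196 and Ifi47 at 49076587. On the other side Gm12250 starts at 58183843, Igtp at 58199556 and Irgm2 at 58214977. The part of their place on the chromosome in these falls was not tested.

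The change was compared between batches by the interaction of knockout and batch. No gene differed between batch C and batch A (0 of 11059 by edgeR's quasi-likelihood test; 99 at an unadjusted p under 0.05), and a fit without a filter on low counts gave 14. With 1 knockout library in batch A the test has little reach, so it does not show that the batches acted alike. For Gbp2 the effect was -4.53 ± 0.49 in A and -3.64 ± 0.32 in C. For Il10 it was -2.13 ± 0.75 in A and -2.90 ± 0.51 in C, a difference C minus A of -0.77 ± 0.96. Neither difference passed the test.

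Irf1 was next set against the related factor Irf8 and against Batf in the same fit; the 3 knockouts share control libraries, so their values are given side by side and the difference is tested. Irf8 knockout cells were C57BL/6 with the genotype dLck Cre(+/-); Irf8 f/f, where dLck usually stands for a T cell Cre under the distal Lck promoter, and Batf knockout cells were C57BL/6 and Batf KO, with 2 libraries each and batch B controls besides. The Irf8 knockout itself had 1 lower gene (0.00904%) and 4 higher (0.0362%). Between the Irf1 and the Irf8 effect 18 genes were lower (0.163%) and 2 higher (0.0181%). Il10 had 31.1 and 88.4 CPM in Irf8 knockout libraries, against 25.8 CPM in the batch A and 54.4 and 47.9 CPM in the batch B controls. Its change in Irf1 knockouts minus that in Irf8 knockouts was -3.23 ± 0.50 (adjusted p = 0.0120). Gbp2 changed by -3.90 with Irf1 and by 0.21 with Irf8, a difference of -4.12 ± 0.32 (adjusted p = 2.24e-05), and Spp1 by -3.78 and 0.01 (difference -3.79 ± 0.36). Iigp1, Ifi47, Timp1, Tgm2, Snx10, Serpinb5, Il13ra1 and Sema4f differed in the same direction. Cd74, the MHC class II invariant chain, differed the other way (3.78 ± 0.48), with 0.48 in the Irf1 and -3.30 in the Irf8 knockout. The first Irf8 knockout library had 43.7% of its counts in the ribosomal RNA gene Rn45s; without it 11 genes in place of 20 (0.181%) passed, 9 of them shared.

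The Batf knockout had more calls, 447 genes (4.04%), of which 319 were lower (2.88%) and 128 higher (1.16%). Against the Batf effect 146 genes were lower in the Irf1 effect (1.32%) and 261 higher (2.36%). Il10 changed by -2.68 with Irf1 and by -3.06 with Batf, with 3.64 and 5.64 CPM in Batf knockout libraries; the difference of 0.38 ± 0.58 did not pass (adjusted p = 0.83), which does not show that the effects are equal. Prf1 changed by -2.06 and -2.62 and Klrk1 by -1.93 and -2.76, with no call on the difference. For the GTPases the effects differed: Gbp2 changed by -3.90 with Irf1 and -0.24 with Batf (difference -3.66 ± 0.32), and 11 of the 17 tested members were lower in the Irf1 effect than in the Batf effect. Ifng fell with Irf1 and rose with Batf, by -2.10 and 1.41 (difference -3.50, adjusted p = 1.16e-05). Of 32 glycolysis and hypoxia genes 23 were higher in the Irf1 than in the Batf effect; 27 of them fell in the Batf knockout and 0 in the Irf1 knockout. Il13ra1 changed by -3.34 and -3.54, while Serpinb5 changed by -2.14 with Irf1 and -4.71 with Batf (difference 2.58, adjusted p = 0.0025).

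The last comparison was with Irf9, the DNA-binding partner of STAT proteins in the response to type I interferon. Irf9 cells were BALB/c, with 4 libraries of the genotype Irf9 KO and 3 WT controls, all at 72 h, so strain and experiment differ from Irf1 and the 2 effects were each taken within their own experiment. Between the effects 81 of 10671 genes were lower with Irf1 (0.759%) and 17 higher (0.159%), 0.918% in all. Il10 had 44.1, 35.2, 42.8 and 30.7 CPM in Irf9 knockout libraries, against 19.7, 23.7 and 20.8 CPM in their controls (0.83, adjusted p = 0.261). The difference between the Irf1 and the Irf9 effect on Il10 was -3.56 ± 0.39 (adjusted p = 2.58e-05). Of the GTPases 12 of 18 tested were lower in the Irf1 effect and 0 of 18 passed in the Irf9 knockout, where Gbp2 had 591, 575, 562 and 557 CPM against 612, 638 and 633 CPM in the controls.

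The 2 knockouts shared 4 calls, of 53 with Irf1 (0.479%) and 26 with Irf9 (0.244%; 0.122% in each direction), in fits of 12 and 19 libraries. Usp18 had 0, 0.559, 0 and 0 CPM in Irf9 knockout against 1.71, 4.86 and 3.67 CPM in control libraries. Ifi27l1 had 2.00, 2.24, 3.77 and 0.731 CPM in Irf9 knockout against 11.1, 20 and 8.55 CPM in control libraries. Both were thus called lower in either knockout. The Usp18 call with Irf9 rests on low levels in both groups (adjusted p = 0.0409 by edgeR's quasi-likelihood test). Its Irf1 call held in 7 of 13 other settings. Spp1 and Sema4f moved in opposite directions. Spp1 had 588, 618, 718 and 698 CPM in Irf9 knockout against 249, 254 and 249 CPM in control libraries (1.39, adjusted p = 1.6e-05), where the Irf1 knockout had lowered it. Sema4f, a semaphorin, had 32.0, 33.5, 49.1 and 32.9 CPM in Irf9 knockout against 13.7, 14.6 and 11 CPM in control libraries; in the Irf1 experiment it had 71.8, 53.1 and 56.3 CPM in knockout against 180 and 158 CPM in control libraries (-1.44 ± 0.21).

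**Figure D4:**
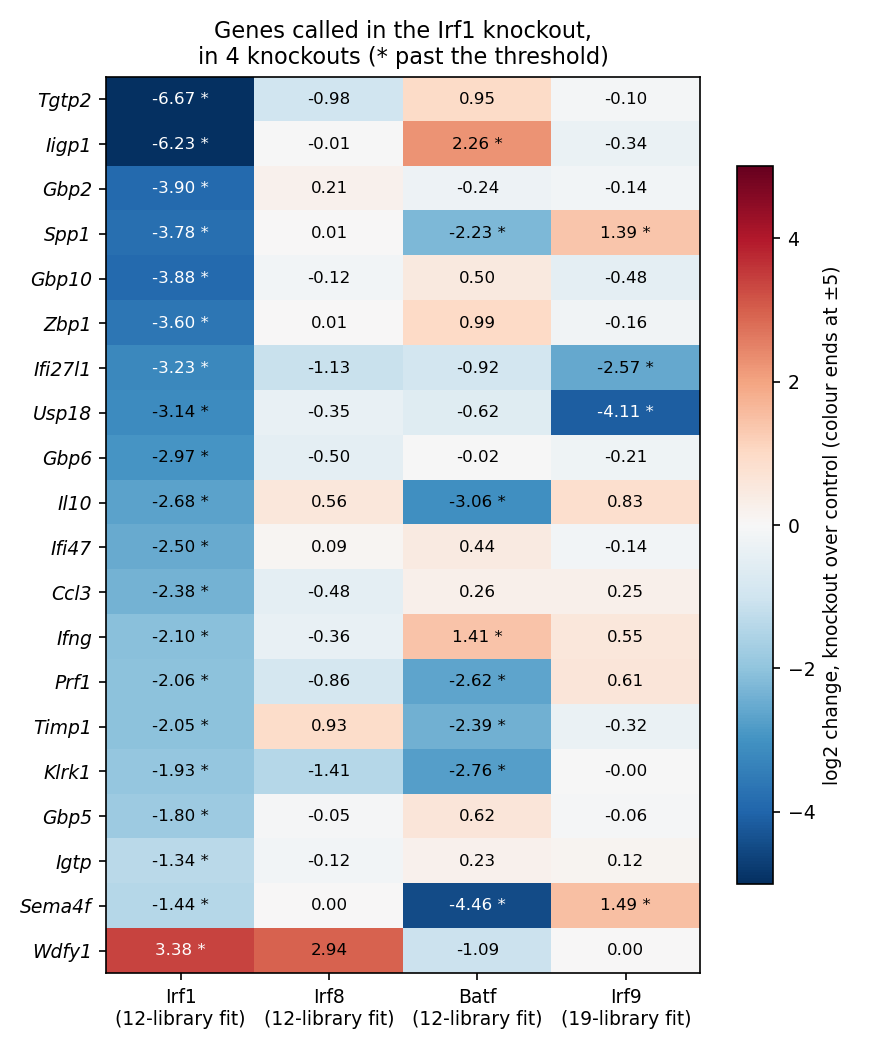
Fitted log2 change, knockout over control, of 20 genes called in the Irf1 knockout, in the Irf1, Irf8, Batf and Irf9 knockouts (columns); an asterisk marks an adjusted p under 0.05. The genes were chosen for their change with Irf1; Gbp2 reads -3.90, 0.21, -0.24 and -0.14 from left to right, and Il10 -2.68, 0.56, -3.06 and 0.83. Irf1, Irf8 and Batf share control libraries.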

How the data were processed

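CD4 T cells, naive at the start and cultured as given above, were measured in bulk by an adaptation of SMART-Seq2, per the labels' protocols. Per the submitters' processing notes, the authors used TopHat, RSEM and mm9, with no versions stated there. The deposited expected counts per gene (RSEM) are not scaled for depth, and 15.4% of nonzero values were not whole; the deposited TPM served only to order the IRF family.

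Rounded expected counts went into edgeR 4.0.16 under R 4.3.3 (filterByExpr, TMM, estimateDisp, glmQLFit, quasi-likelihood F-test), with genotype and batch as terms over the 12 libraries of the Batf, Irf1, Irf8 and Stat3 experiments, which have 5 residual degrees of freedom. Irf9 entered with its own 7 libraries as a further batch, 19 in all. Each SE was derived from the test, as the size of the fitted log2 change divided by the square root of its F statistic. Adjusted p-values are Benjamini-Hochberg over all genes tested. The 3 knockout libraries were not duplicates (chi-square per degree of freedom 13.4 to 32.4).

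The genes named were Irf1, Il10, up to 15 rises and 15 falls of largest size with at least 20 CPM and every library beyond its control, up to 6 called members (or 4 uncalled) of each of 32 lists, and all IRF and IL-27 or STAT members; a few others were named after their values were seen, Gm12250 and Enpp2 among them, with further uncalled members given as values. Members and lists were chosen with earlier results of these data known. Lists are described by counts and medians only. Some genes covered by this naming rule are not reported here.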

Additional observations from a re-analysis of the deposited data

Results flagged for a closer look

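In the 4 Irf9 knockout libraries, used here for comparison, 1 library lay far from the others in 2 of 6 genes checked. Sema4f had 32.0, 33.5, 49.1 and 32.9 CPM, where the gap of the highest library to the next takes up 0.912 of the range of the group. Usp18 had 0, 0.559, 0 and 0 CPM, where that share is 1.0 by construction, as 3 libraries are at 0, and it carries no weight. For Sema4f, chance flags about 1 in 20 groups of this size.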

How the results depend on the processing

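No paired analysis was possible because the Irf1 knockout and control libraries share fewer than 2 replicate numbers; batch as a term sets each knockout against its own control. In place of 53 genes (48 lower, 5 higher), DESeq2 1.42.0 called 101 (32 higher) and a fit without a filter on low counts 164 (101 lower, 63 higher, with 10 other interferon-stimulated genes). No batch term gave 21 higher and 1 fit over 69 libraries 14 higher, with 2 cytokine, 0 Th1 and 0 cytotoxic genes. The 5 libraries alone called 13 genes (10 lower, 3 higher; 4 GTPases, 0 interferon-stimulated, 1 cytokine, 0 Th1, 0 cytotoxic), and batch C alone 7 (6 lower, 1 higher; 3 GTPases, 0, 1, 0 and 0 in the same order), with fewer residual degrees of freedom. Il10 kept its direction throughout, at -2.70 and -2.93 in these fits without passing. Leaving out 1 of the 5 libraries gave 2 to 65 calls, 2 to 52 lower and 0 to 15 higher; GTPases 1 to 11, other interferon-stimulated genes 0 to 7, cytokines 1 to 6, Th1 genes 0 to 3, cytotoxic genes 0 to 3, and Il10 -2.95 to -2.14. Of the named single genes Tgtp1 alone has a fitted value of other sign (-0.72 without the batch C control, 7.10 without Irf1 knockout 1), but -0.72 sets 0 counts against 0 counts and holds no information on direction. Without a filter the differences held 14 genes between batches, 102 from Irf8, 641 from Batf and 259 from Irf9, and without Irf8 knockout 1 that from Irf8 held 11. At 743445 counts the shallowest library limits genes under about 4.22 CPM.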
